A study of Mus musculus with 4 samples.

Results

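Matrix metalloproteinases and their tissue inhibitors were examined in RNA sequencing of adipocytes isolated from perigonadal white fat, the visceral depot beside the gonads. The genes were 7 metalloproteinases of macrophages and stroma (Mmp2, Mmp3, Mmp9, Mmp12, Mmp13, Mmp14 and Mmp19) and 3 inhibitors (Timp1, Timp2 and Timp3). They were chosen by name, and each matched a single row of the 55487 in the deposited table. Male mice on standard chow were compared, CKO animals against control littermates whose genotype label is WT, with 2 libraries per group. The series title names the transcription factor BLIMP1 and macrophages. The labels do not spell out CKO, the targeted allele, the Cre driver or the ages, nor whether each library is 1 animal. The p-values below therefore rest on the spread between these libraries, which may be technical. They come from limma, which also draws part of each gene's variance from the other genes tested.

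Matrix metalloproteinases are zinc-dependent enzymes that cut collagens, elastin, basement membrane and other matrix proteins, and most are secreted as inactive precursors. TIMPs bind the active site and block it, and TIMP2 also takes part in the activation of pro-MMP2 by the membrane enzyme MMP14. In fat, these enzymes remodel the matrix around growing adipocytes and vessels, and macrophages that gather in the tissue are a known source of several of them, above all of the elastase MMP12.

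Mmp12, Mmp13 and Mmp3 lie in a cluster of 10 metalloproteinase genes on mouse chromosome 9, which spans 427 kb in GENCODE M21 on GRCm38. These are the members with the widest range between libraries, so their start regions were read. RefSeq promoters (GRCm38.p6) matched 7 of the 10 genes with 8 start sites, and the 250 bases before each were searched on both strands for the AP-1 motif TGANTCA, which reads the same on both strands. Expression of metalloproteinase genes is classically induced through AP-1. The motif stood before 3 of the 8 starts, those of Mmp13, Mmp3 and the downstream start of Mmp12, and before 6.75% of 32851 RefSeq starts. Its first base lay 35 bases before the start of Mmp13, 46 before Mmp3 and 44 before Mmp12. In the windows below, on the plus strand at chr9:7272459-7272505, chr9:7445756-7445802 and chr9:7347310-7347356 in this order, the motif is in capitals. The Mmp12 window lies in an intron of that gene's longer transcripts.
Mmp13: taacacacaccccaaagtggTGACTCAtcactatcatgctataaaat
Mmp3: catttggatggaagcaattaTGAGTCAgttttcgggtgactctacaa
Mmp12: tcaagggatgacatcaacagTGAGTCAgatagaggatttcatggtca

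The letters GAGGAAGT, which contain a core bound by the myeloid factor PU.1, were found before 1 of the 8 starts, the upstream start of Mmp12, against 2.44% of all starts. The match is on the minus strand, 88 bases before the start, and is shown in capitals as read on the plus strand (chr9:7344289-7344336). The letters GTGAAAG, a core of the BLIMP1 motif, were in 0 of the 8 windows and in 3.57% of all.
Mmp12: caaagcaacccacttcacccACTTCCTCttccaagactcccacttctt

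Totals were 24152081 to 26742547 reads per library. WT replicate 2 stood apart: by summed scaled reads it had the most of macrophage markers and the fewest of adipocyte and endothelial ones. The summed scaled reads (reads divided by a size factor) of 12 macrophage markers were 42550 and 89418 in CKO replicates 1 and 2 and 182155 and 538041 in WT replicates 1 and 2. All 12 had lower means in CKO, led by Cd68 and Adgre1, and none was at 0. For 10 adipocyte markers such as Adipoq the sums were 1329975 and 847593 in CKO and 717880 and 218065 in WT, so the labelled cell type was present in every library, beside macrophage RNA. Of these markers 9 had a positive log2 change and 1, Lep, a negative one. Lep had 13415 and 23666 reads in CKO and 57746 and 25207 in WT. For 6 endothelial markers they were 50323 and 75322 in CKO and 41206 and 14946 in WT. Fibroblast and progenitor markers (12 genes) had sums nearer to each other, at 28386 and 32464 against 32822 and 35046, but the genes differed. Their log2 changes ran from -1.90 (Lum) to 0.78 (Ly6a), 7 negative and 5 positive. In both CKO libraries 5 of the 12 (41.7%) lay below both WT values, beside 26.8% of all genes tested. Above both lay 1 (8.33%, beside 23.9%). The lipid-associated macrophage list (7 genes) was at 228215 and 134484 against 243488 and 412656. Lpl, which adipocytes also express, held most of it in CKO and in WT replicate 1, with 224289 and 113808 against 188431 and 199515. All 7 genes had a negative log2 change, with a median of -3.58. In both CKO libraries 5 of the 7 (71.4%) lay below both WT values, beside 26.8% of all genes tested. The neutrophil list was at 188 and 227 against 299 and 406, a sum carried by S100a8. Of its 3 genes that could be tested 1 was lower and 2 higher. Camp, 1 of the 2, passed the filter on low values through its CKO libraries alone (mean deposited log2 value 4.83 in CKO and 1.66 in WT). Its direction is therefore a description. The sums were, for mesothelial markers, 365 and 219 against 301 and 157 and, for smooth muscle markers, 2525 and 5699 against 7111 and 2690. The epididymal list reached at most 13.6, with Lcn5 at 0. Fewer cells of a type and less RNA per cell cannot be told apart in such bulk samples, and the part of these differences in the results below was not tested unless a value is given.

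Each difference below is the CKO mean less the WT mean of log2(scaled reads + 1), a scale that understates those of low genes, with limma's standard error and its p adjusted over 16871 genes. The members split by level and direction. Mmp12, Mmp13, Mmp3, Mmp19 and Timp2 were lower in both CKO libraries than in both WT libraries, and Timp3 was higher in both. Mmp2, Mmp9, Mmp14 and Timp1 overlapped between the groups. No member passed the adjusted threshold of 0.05 (0 of 10, background 0%), in limma or with voom weights. At an unadjusted p under 0.05, 5 of 10 were lower and 0 higher, against 7.26% and 3.35% of all genes tested. The same 5 were those below both WT values, against 26.8% of all genes, and the 1 above both compares with 23.9%. The median log2 change of the 10 was -1.72, and that of all genes was 0.015. All 10 passed the filter on low values, Mmp3 through its WT libraries alone (mean deposited log2 value 2.29 in CKO and 5.52 in WT), so its difference is a description. Without Mmp3 the counts were 4 of 9 lower, and 4 below both WT values. Without CKO replicate 1, counts under the unadjusted threshold fell among the members as over all genes. Mmp12, Mmp13, Mmp3, Mmp19 and Timp2 no longer stood under it in that fit, which has only CKO replicate 2 in its group. Their log2 changes were smaller in size than with all libraries, at -2.74 for Mmp12, -2.42 for Mmp13, -2.72 for Mmp3, -1.655 for Mmp19 and -1.65 for Timp2.

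**Figure D1:**
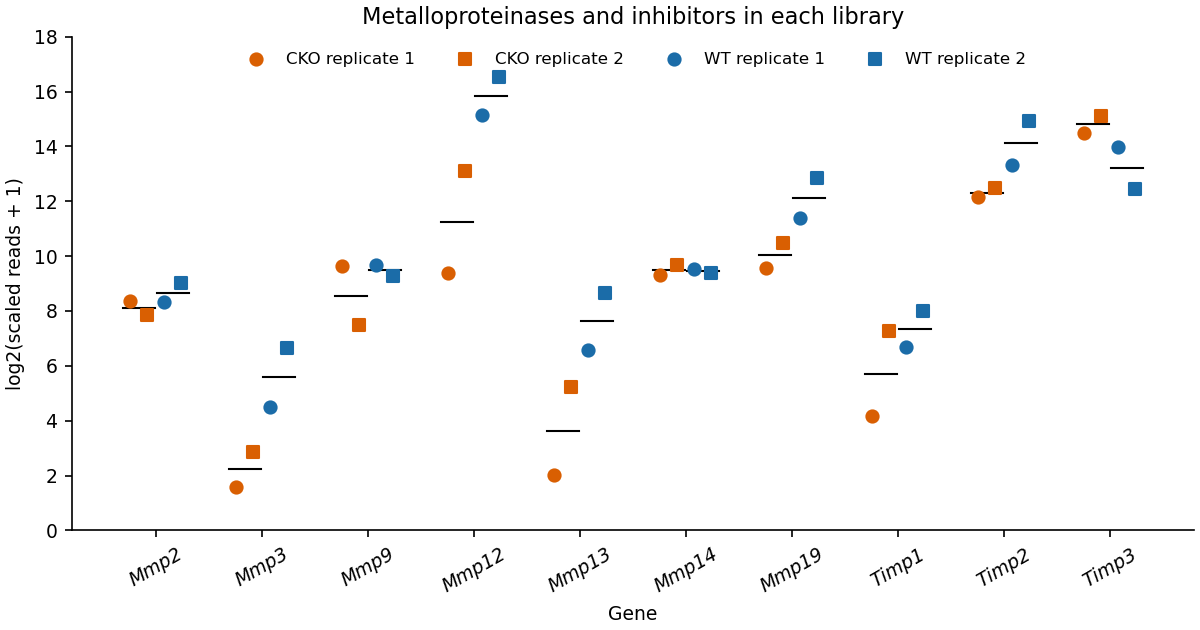
Level of each gene in each library as log2(scaled reads + 1), with CKO in orange, WT in blue, circles for replicate 1, squares for replicate 2 and a line at each group's mean. Mmp3, Mmp12, Mmp13, Mmp19 and Timp2 lie lower in both CKO libraries than in both WT libraries, Timp3 lies higher, and the other 4 genes overlap.

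Mmp12 encodes macrophage metalloelastase, which cuts elastin and many other proteins. It was read 673 and 9809 times in CKO replicates 1 and 2, and 34878 and 91133 times in WT replicates 1 and 2. In WT replicate 2 it took 0.349% of all reads and ranked 24 among all genes, and its rank was 59 in the other WT library, 347 in CKO replicate 2 and 6267 in CKO replicate 1. The groups did not overlap, and the CKO libraries differed from each other more than the WT libraries did on the log2 scale. Scaled reads averaged 4780 ± 5806 in the CKO group and 66019 ± 42147 in the WT group (SD, n = 2). On the log2 scale the difference was -4.59 (SE 1.31, 95% interval -7.96 to -1.22, adjusted p 0.459 in limma). It was -2.74 without CKO replicate 1 and -6.45 without CKO replicate 2, negative in both cases. Mmp12 (GRCm38 chromosome 9, 7344381 to 7369499) shares 157 exon bases with Mmp1b on the opposite strand, which had 0 reads in all libraries.

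Mmp13, an interstitial collagenase of mice, followed the same order at a far lower level. Its reads numbered 3 and 40 in CKO and 92 and 386 in WT. Its log2 change was -4.02 (SE 1.29, adjusted p 0.459 in limma), and it was -2.42 without CKO replicate 1, -5.62 without CKO replicate 2, -5.07 without WT replicate 1 and -3.00 without WT replicate 2. Mmp13 lies at 7272514 to 7283331 on the plus strand of chromosome 9.

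Mmp3, stromelysin 1, which cuts matrix proteins and activates other pro-enzymes, had 2 and 7 reads in CKO and 21 and 95 in WT. Its counts were the lowest of the 10 genes in each library, and both CKO counts lay below both WT counts. The log2 change was -3.35 (SE 0.94, adjusted p 0.459 in limma), between -2.30 without WT replicate 2 and -4.44 without WT replicate 1. Mmp3 lies at 7445822 to 7455975 on chromosome 9.

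The other genes of the cluster were near absence. Mmp10, a second stromelysin, had 0 and 0 reads in CKO and 3 and 37 in WT, the same order of groups as Mmp12, Mmp13 and Mmp3, but it did not pass the filter and was not tested. Mmp8, a collagenase of neutrophils, had 7 and 13 reads in CKO and 8 and 7 in WT. Mmp27 had 14 and 9 against 23 and 31. Mmp1a, Mmp1b and Mmp20 had 0 reads in every library, and Mmp7 had 1 to 5.

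Mmp19, a widely made secreted metalloproteinase that cuts basement membrane proteins, had 764 and 1574 reads in CKO and 2591 and 7047 in WT. WT replicate 2 was highest, and WT replicate 1 was nearer to CKO replicate 2 than to WT replicate 2 in reads. Scaled reads averaged 1096 ± 467 in the CKO group and 5050.0 ± 3337 in the WT group (SD, n = 2). This is a log2 change of -2.10 (SE 0.59, 95% interval -3.62 to -0.58, adjusted p 0.459 in limma). It was -1.38 without WT replicate 2 and -2.83 without WT replicate 1. Mmp19 (chromosome 10, 128790910 to 128800824) shares 789 exon bases with Tmem198b on the opposite strand, which had 225 to 499 reads, and whether the counting used strand is not stated in the labels.

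The gelatinases, which cut denatured collagen and basement membrane collagen, did not separate the groups. Mmp2, the gelatinase of fibroblasts and other stromal cells, had 329 and 257 reads in CKO and 306 and 496 in WT. Only WT replicate 2 stood above the others. Its log2 change was -0.55 (SE 0.38, 95% interval -1.55 to 0.44, adjusted p 0.541 in limma). Mmp9, the gelatinase of myeloid cells, had 790 and 195 reads in CKO and 791 and 596 in WT. CKO replicate 2 alone was low, and CKO replicate 1 equalled WT replicate 1 to within 1 read. The log2 change of Mmp9 was -0.94 (SE 0.74, 95% interval -2.85 to 0.97, adjusted p 0.580 in limma), and it turned to 0.14 without CKO replicate 2 and was -2.03 without CKO replicate 1. Of the neutrophil genes beside it, S100a8 alone was lower in both CKO libraries, with 71 and 139 reads against 263 and 377 in WT. The others had few reads and more in CKO: S100a9 had 51 and 54 against 13 and 7, Camp 28 and 27 against 4 and 1, Ngp 19 and 24 against 2 and 0, and Retnlg 16 and 7 against 6 and 1. Ly6g, which defines neutrophils, had 3 reads in CKO replicate 1 and 0 elsewhere.

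Mmp14, the membrane-bound collagenase that activates pro-MMP2, varied least of the 10 genes. It had 631 and 910 reads in CKO and 718 and 631 in WT. The group ranges overlapped, and the log2 change was 0.037 (SE 0.26, adjusted p 0.957 in limma). The 95% interval ran from -0.64 to 0.72, so differences within these bounds were not detectable with 2 libraries a group. Its sign turned when CKO replicate 2 (-0.16) or WT replicate 2 (-0.058) was left out.

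The inhibitors moved in different directions. Timp2, the widely made inhibitor that also pairs with MMP14, had 4502 and 6290 reads in CKO and 9859 and 29418 in WT. The CKO libraries were close to each other, and WT replicate 2 was well above WT replicate 1. Scaled reads averaged 5104 ± 840 in the CKO group and 20584 ± 14633 in the WT group (SD, n = 2). This is a log2 change of -1.81 (SE 0.60, 95% interval -3.35 to -0.27, adjusted p 0.459 in limma). It was -1.03 without WT replicate 2 and -2.62 without WT replicate 1. Timp2 lies on the minus strand of chromosome 11, from 118301069 to 118355740.

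Timp3, the inhibitor that binds to the extracellular matrix and also blocks ADAM proteinases, was the only member above both WT values in both CKO libraries. It had 22969 and 39353 reads in CKO and 15616 and 5264 in WT. Scaled reads averaged 29328 ± 8935 in the CKO group and 10875 ± 7552 in the WT group (SD, n = 2). The corresponding log2 change was 1.60 (SE 0.64, 95% interval -0.057 to 3.25, adjusted p 0.459 in limma). It was 0.81 without WT replicate 2, the library with the fewest endothelial reads, and 2.37 without WT replicate 1. Timp3 (chromosome 10, 86300372 to 86349506) lies within Syn3 on the opposite strand, with 1733 shared exon bases, but Syn3 had 13 to 62 reads.

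Timp1, the inducible inhibitor of inflamed and fibrotic tissue, had 17 and 169 reads in CKO and 98 and 242 in WT. CKO replicate 1 was low, and CKO replicate 2 lay between the WT libraries. Its log2 change was -1.62 (SE 1.13, 95% interval -4.55 to 1.31, adjusted p 0.544 in limma), and -0.081 without CKO replicate 1 but -3.17 without CKO replicate 2. Timp1 (chromosome X, 20870166 to 20874735) sits inside Syn1 on the opposite strand without shared exon bases. Syn1 itself had 12 and 56 reads in CKO and 149 and 271 in WT, and how reads were divided between these genes was not tested.

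**Figure D2:**
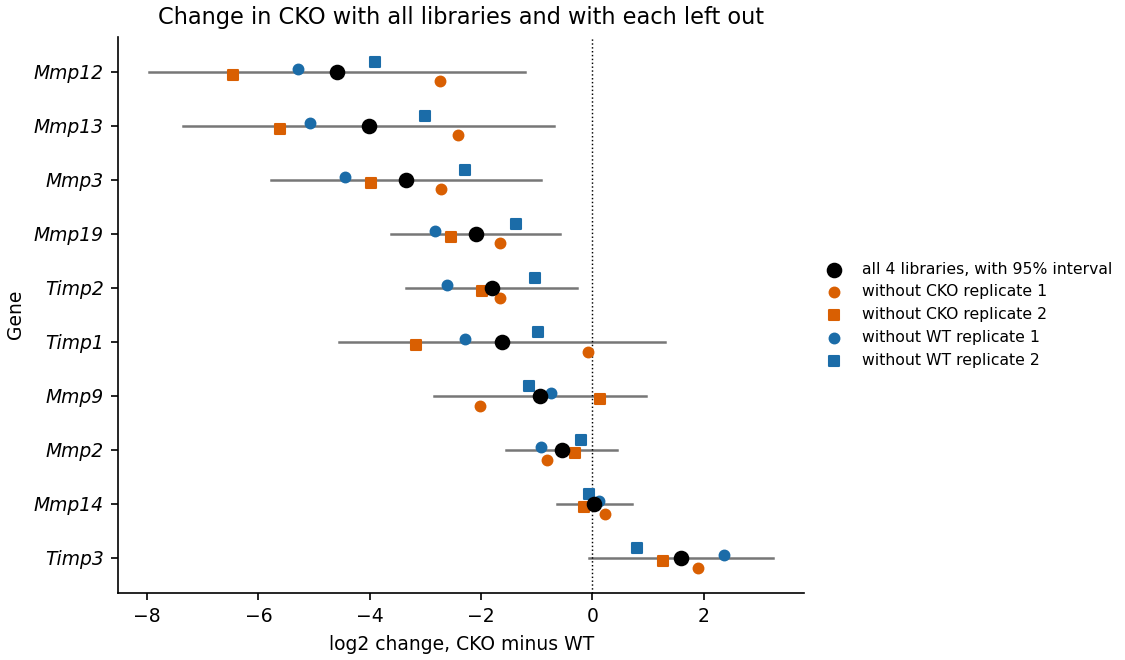
Log2 change (CKO minus WT) of each gene with all 4 libraries (black, bars are limma's 95% intervals) and with each library left out (orange without a CKO library, blue without a WT library). The intervals of Mmp12, Mmp13, Mmp3, Mmp19 and Timp2 lie below 0, that of Timp3 reaches -0.057, and the value of Timp1 moves from -0.081 without CKO replicate 1 to -3.17 without CKO replicate 2.

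Without WT replicate 1, in a fit that takes the spread of the remaining WT library from the CKO pair, Mmp19 and Timp2 (lower, adjusted p 0.0444 each) and Timp3 (higher, 0.0477) passed the adjusted threshold in limma. Mmp3 was under it too (0.0477), but as it passed the filter through WT alone this is a description. In that fit 10.1% of 16946 genes passed, 5.43% lower and 4.7% higher.

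Levels between genes were compared as RPKM (reads per kilobase of exon, scaled to library total), from the exon length in GENCODE M21; the labels do not name the annotation used for counting. In WT replicates 1 and 2 Mmp12 was highest, at 199.5 and 482, followed by Timp2 at 105 and 289. Timp3 at 79.4 and 24.7 and Mmp19 at 30.4 and 76.3 came next and could not be ordered, since they changed places between the WT libraries. In CKO replicates 1 and 2 the order was led by Timp3, at 112 and 181, over Timp2 at 45.7 and 60.4, without overlap. Mmp12 was at 3.68 and 50.7 in CKO, a spread that spans the levels of Mmp19 (8.56 and 16.7) and Mmp14 (4.19 and 5.71). Mmp9 (2.06 to 9.25), Mmp14 (4.05 to 5.71), Mmp2 (2.85 to 5.63) and Timp1 (0.758 to 10.4) overlapped over the 4 libraries. Mmp13 and Mmp3 reached at most 5.52 and 2.02.

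The 7 metalloproteinases summed to 29.2 and 78.7 in CKO and 250 and 582 in WT on this per-length scale. Mmp12 made up 79.9% and 82.8% of that sum in the WT libraries and 64.4% in CKO replicate 2, while in CKO replicate 1 Mmp9 was the leading gene with 30.2%. The 3 inhibitors summed to 158 and 248 in CKO and 189 and 324 in WT, so their groups overlapped. Their make-up differed: Timp3 held 70.6% and 72.8% of the sum in CKO, and Timp2 held 55.5% and 89.2% in WT.

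Ratios of reads within a library do not depend on the scaling between libraries. Timp2 had 19.6 and 16.0 reads per 100 Timp3 reads in CKO, and 63.1 and 559 in WT. Mmp12 had 14.9 and 156 reads per 100 Timp2 reads in CKO and 354 and 310 in WT, lower in both CKO libraries. By contrast, Mmp14 had 14.0 and 14.5 per 100 Timp2 reads in CKO against 7.28 and 2.14 in WT. Mmp2 had 7.31 and 4.09 against 3.10 and 1.69. Both were thus higher relative to Timp2 in CKO, with Timp2 itself lower. The proportion of Mmp19 to Timp2 stayed within 1.55-fold over the 4 libraries, at 17.0 and 25.0 in CKO and 26.3 and 24.0 in WT.

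Set against the macrophage marker Adgre1 (F4/80; 1384 and 3106 reads in CKO, 8071 and 31880 in WT), the members came apart. Mmp12 had 48.6 and 316 reads per 100 Adgre1 reads in CKO and 432 and 286 in WT, so CKO replicate 2 lay within the WT range and CKO replicate 1 far below it. Per 100 Cd68 reads, another macrophage marker, Mmp12 had 38.0 and 161 in CKO and 244 and 168 in WT, lower in both CKO libraries, with CKO replicate 2 close to WT replicate 2. Mmp3, on few reads, had 0.145 and 0.225 per 100 Adgre1 reads in CKO and 0.260 and 0.298 in WT, also lower in both. Mmp13 had 0.217 and 1.29 against 1.14 and 1.21, again low in CKO replicate 1 alone. Relative to Gpnmb, a marker of lipid-associated macrophages picked for this purpose after its values were seen, Mmp12 was not low in CKO replicate 1, at 161 and 86.4 reads per 100 Gpnmb reads in CKO and 101 and 63.1 in WT. Mmp19, with 55.2 and 50.7 per 100 Adgre1 reads in CKO and 32.1 and 22.1 in WT, and Timp2, with 325 and 203 against 122 and 92.3, were higher per Adgre1 read in both CKO libraries, though lower in scaled reads. Adgre1 itself had a log2 change of -3.08, a larger fall than the median of -2.20 of the 12 macrophage markers. These ratios therefore depend on the marker, and those of Mmp19 and Timp2 to other macrophage markers were not computed. Mmp14 ranged from 1.98 in WT replicate 2 to 45.6 in CKO replicate 1.

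Against the stromal marker Pdgfra, which had 123 and 115 reads in CKO and 155 and 257 in WT, Mmp2 varied little but was higher in both CKO libraries. It had 267 and 223 reads per 100 Pdgfra reads in CKO and 197 and 193 in WT, the narrowest range of the 10 genes (1.39-fold from lowest to highest). Ratios of Mmp2 to other stromal markers were not computed. Dpp4, a progenitor marker, had 49 and 60 reads in CKO and 81 and 46 in WT, and the mesothelial marker Msln had 20 to 42 in all libraries. Timp3 kept its proportion to Kdr, an endothelial receptor, within 1.11-fold, at 124 and 136 reads per 100 Kdr reads in CKO and 138 and 137 in WT, slightly lower in both CKO libraries. Over the other 5 endothelial markers Timp3's ratio was higher in both CKO libraries, with 1.27-fold (Emcn) to 1.56-fold (Tek) between the lowest and highest library. The endothelial set was used for this ratio after the Timp3 values were seen.

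**Figure D3:**
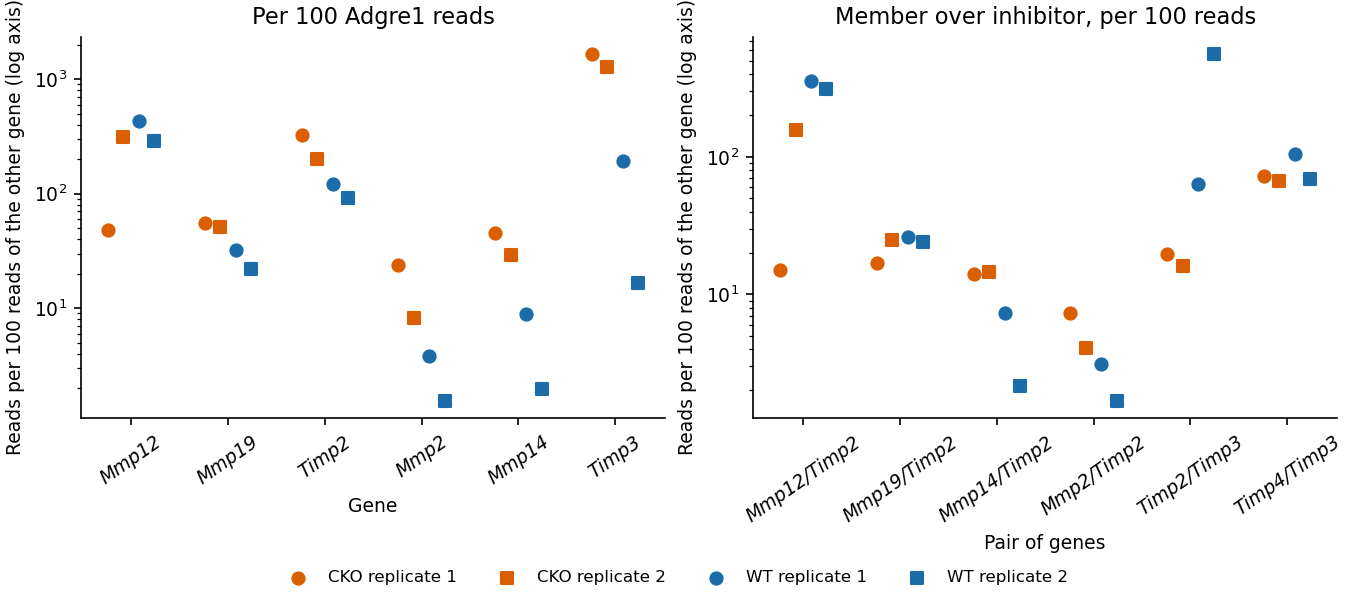
Reads of a gene per 100 reads of Adgre1 (left) and of an inhibitor gene (right) within each library, on log axes, with CKO in orange, WT in blue, circles for replicate 1 and squares for replicate 2. Mmp12 per Adgre1 is low in CKO replicate 1 alone, Mmp19 per Timp2 stays between 17.0 and 26.3, and Timp2 per Timp3 is lower in both CKO libraries.

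The genes whose pattern over the 4 libraries was nearest to a member were named by the root mean square difference of centred log2 values among 11149 genes. For Mmp12 they were Vsig8 (0.21), Rnf128 (0.27) and Fam83f (0.28), and no other gene came within 0.3. For Timp3 they were Pxdc1 (0.022), Cd300lg (0.023) and Epb41l4a (0.038), of 384 within 0.3. For Mmp2 they were Usp11 (0.018), Tbc1d31 (0.033) and Tsga10 (0.039), of 1852, and for Mmp14 Tax1bp3 (0.017), Myl12b (0.022) and Trak2 (0.025), of 4514. With 4 libraries a close match is easily met by genes that vary little, as the last counts show.

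Other genes of matrix turnover, listed by role, showed a mixed picture. Of 89 genes, 81 were tested, and 45 had a negative and 36 a positive log2 change, with a median of -0.21 beside 0.015 for all genes. None passed the adjusted threshold in limma or with voom weights. At an unadjusted p under 0.05, 14 (17.3%) were lower and 4 (4.94%) higher, beside 7.26% and 3.35% of all genes. The list's median was -0.039 without CKO replicate 1, -0.35 without CKO replicate 2, 0.008 without WT replicate 1 and -0.17 without WT replicate 2. Counts under the unadjusted threshold also changed with the library left out, as they did over all genes.

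Among the other metalloproteinases (8 tested), Mmp11, stromelysin 3, was higher in both CKO libraries, with 1602 and 1575 reads against 633 and 248 in WT, a log2 change of 1.87 (SE 0.48, unadjusted p 0.0121 in limma). Mmp23 was lower, with 78 and 94 reads against 187 and 140 (-1.04, unadjusted p 0.0390 in limma). The list's median was 0.60, opposite in sign to the -2.10 of the 7 metalloproteinase members.

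Timp4, the fourth inhibitor and one that is abundant in fat, had 16580 and 26309 reads in CKO and 16369 and 3626 in WT. WT replicate 2 alone was low, and the log2 change was 1.31 (SE 0.78, unadjusted p 0.155 in limma). Per 100 Timp3 reads Timp4 stood at 72.2 and 66.9 in CKO and 105 and 68.9 in WT. Reck, a membrane-anchored inhibitor of metalloproteinases, had 112 and 225 reads against 132 and 78 (0.51, unadjusted p 0.354). Tfpi2, a serine protease inhibitor, was lower, with 24 and 47 against 138 and 83 (-1.77, unadjusted p 0.0206 in limma).

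The cysteine proteinases of the lysosome, some of which also act on matrix, were lower. Ctsk, the collagen-cutting cathepsin K, had 223 and 991 reads in CKO and 1987 and 9427 in WT (-3.33, unadjusted p 0.0203 in limma), and Ctss and Ctsl were at -3.07 and -1.83. These 3 of the 5 genes listed (60.0%) were under the unadjusted threshold, beside 7.26% of all genes lower. Ctsb (-2.07, unadjusted p 0.0941 in limma) was not, nor was Fap (-0.070, 0.887), listed as another matrix proteinase and not a cysteine one. The list's summed level was highest in WT replicate 2, as was that of the macrophage markers.

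ADAM and ADAMTS proteinases were divided. Adam8, a myeloid membrane proteinase, had 378 and 3016 reads in CKO and 6582 and 25587 in WT (-3.74, unadjusted p 0.0218 in limma), and Adam19 was at -1.37. Adamts1, Adamts9 and Adamts12, secreted proteinases of which Adamts1 and Adamts9 cut proteoglycans, were higher, at 1.45, 1.47 and 1.42 (unadjusted p 0.0312, 0.0417 and 0.0365). Of 7 genes of the plasminogen system and other activators tested, 1 (14.3%) was lower under the threshold, beside 7.26% of all genes. This was Lrp1, a receptor that clears proteinases, at -1.40 (unadjusted p 0.0370 in limma).

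Of 25 matrix substrates, 4 (16.0%) were lower at the unadjusted threshold and 0 higher, beside 7.26% and 3.35% of all genes tested. Spp1, osteopontin, had 52 and 875 reads in CKO and 1386 and 5154 in WT (-3.77, unadjusted p 0.0444 in limma). Lum, the collagen-binding proteoglycan lumican, was at -1.90, and Col1a1 and Col1a2, the chains of type I collagen, were at -1.74 and -0.67. Lum and Col1a1 also stand in the fibroblast marker list. In the 6 crosslinking genes none passed, and Lox, which crosslinks collagen and elastin, had the smallest unadjusted p (0.0782, -0.74). Among the 12 inducers, Tnf (-2.90) and Il1b (-1.99), cytokines that induce metalloproteinase genes, were lower, with unadjusted p 0.0108 and 0.0249 in limma. The AP-1 gene Fos, picked after its values were seen, had 76304 and 134833 reads in CKO and 80082 and 105107 in WT and overlapped between groups. Fosb, Fosl1, Fosl2, Junb and Jund overlapped too. Jun lay above both WT values in both CKO libraries, with 58453 and 88360 reads against 52662 and 35863. Its log2 change was 0.59 (unadjusted p 0.398 in limma).

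**Figure D4:**
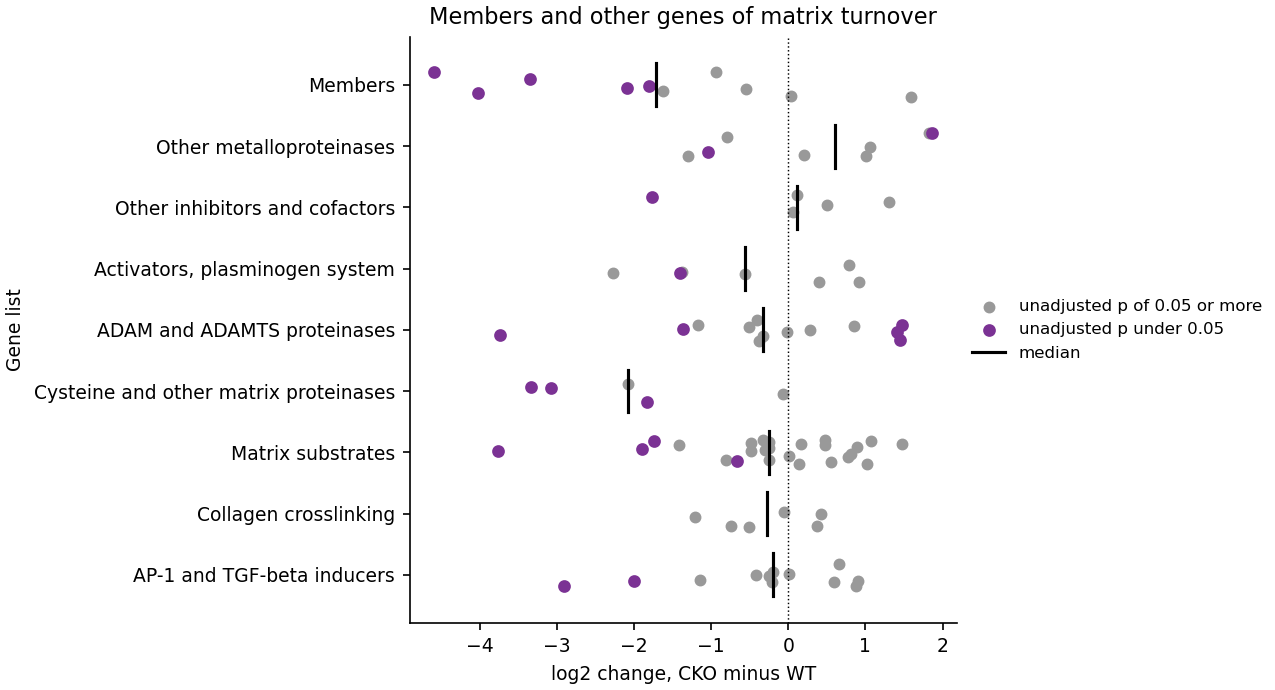
Log2 change (CKO minus WT) of each tested gene, by list, with genes of unadjusted p under 0.05 in purple, the others in grey and each list's median as a line. Among the members 5 of 10 genes are purple and all lie below 0, while the ADAM and ADAMTS list has 2 below (15.4%) and 3 above (23.1%). Over all genes tested the shares are 7.26% below and 3.35% above.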

How the data were processed

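Total RNA of the adipocytes was isolated with TRIzol and an RNeasy kit and sequenced on an Illumina NovaSeq, per the labels' protocols. The submitters' processing notes name FastQC, STAR 2.7.5c and the build GRCm38.p6. How reads were counted, with which annotation and strand setting, was not given in the sources used here. As 1 table, the authors deposited log2 values, named as normalised counts. Undoing the log gave whole reads, within 0.01, for 100% of genes in each library, and totals differed, so the values are log2(reads + 1) without scaling, and intervals cover only what 2 libraries a group allow.

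Reads were recovered and divided by size factors (0.951 to 1.10, medians of ratios over 19847 genes). The 16871 genes whose deposited log2 values averaged 3 or more were fitted with limma 3.58.1 in R 4.3.3 on log2(scaled reads + 1), by group, with eBayes and a trend, two-sided, with Benjamini-Hochberg adjustment. With 2 against 2, no permutation test can pass 0.05. The fit was tested on simulated data. Their spread between libraries was set below that of members such as Mmp12, so the test does not measure power here. Identifiers were matched to GENCODE M21 (99.3%), and coordinates are 1-based.

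Members and lists were chosen with earlier results of these data known. The rule for named genes takes all members, Timp4, Reck, defining cell markers and, in each list and direction, up to 4 genes at an unadjusted p under 0.05, or else the 1 of smallest p. The alternatives were other scalings, filters, pseudocount and variance models, and each library left out. Replicate numbers follow record order and pair no libraries.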

Additional observations from a re-analysis of the deposited data

How the results depend on the processing

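Over 14 alternatives the 10 genes gave 138 log2 changes: 131 kept direction and side of the adjusted threshold, 4 newly passed it (each without WT replicate 1; 3 leaving out Mmp3, which passed the filter through WT alone) and 3 turned in sign. These were Mmp9 (0.14) and Mmp14 (-0.16) without CKO replicate 2 and Mmp14 (-0.058) without WT replicate 2. With a library left out, Mmp9 ranged from -2.03 to 0.14 and Mmp14 from -0.16 to 0.22. Values that kept direction could still differ widely in size, as Timp1 ranged from -3.17 to -0.081 and Mmp12 from -6.45 to -2.74. Genes past the adjusted threshold stayed at 0 in every alternative that kept all libraries, and ranged from 0 to 1717 with a library left out. Members at an unadjusted p under 0.05 numbered 3 with a minimum of 6 on the mean deposited value, where Mmp3 and Mmp13 went untested. With a library left out the members' number fell or rose, as did that over all genes. Voom weights gave 4 (Mmp12 at p 0.0526 in limma), and quantile normalisation, no filter and library weights each gave 6, adding Timp3 as higher (p 0.0457, 0.0476 and 0.0441). Other matrix turnover genes under it ranged from 2 to 42. The low end of this range came without CKO replicate 1 and the high end without WT replicate 1. Counts over all genes were also lowest and highest in these fits, so the range is not a result about matrix genes. In the alternatives that kept all libraries, these other matrix turnover genes numbered 13 to 20. Without scaling, the median change of all genes was 0.15 in place of 0.015. Genes at an unadjusted p under 0.05 were then 855 lower and 859 higher in place of 1224 and 566. The members' count stayed at 5 lower and 0 higher without scaling. The 2 libraries a group limit every interval, and the reads of Mmp3 and Mmp13 in CKO add counting error. No paired analysis was possible because the labels give no replicate numbers shared between groups.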
